A study of Mus musculus with 6 samples.

Results

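The subject of these results was a set of 10 mouse histone genes whose messages were counted from their polyadenylated ends, H1f0, H2afz, H2afx, H2afy, H2afv, H2afj, H3f3a, H3f3b, Hist1h1c and Hist1h2bc. The rule for the set used no measured value. It named replacement and linker histones, with earlier results of these data known, and each symbol was matched exactly to the table of unique molecular identifier (UMI) counts. All 10 were among the 10520 genes of the table, and all 10 passed the filter on low counts that left 8969 genes for testing. The RNA came from E0771 cells, a breast adenocarcinoma line of C57BL/6 mice. The cells had been transduced with lentivirus made in HEK293T cells that carried either an empty pLKO.5-puro vector (shControl) or the same kind of vector with an shRNA against lamin A/C (shLmna), and both kinds were then selected and expanded in 3 µg/ml puromycin. Each group had 3 libraries of cultured cells that grew without a host, with no further treatment. The shLmna libraries carry shRNA4 in their titles, so the knockdown rests on 1 construct against lamin A/C and the control has no non-targeting hairpin.

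Lamin A and lamin C line the inner face of the nuclear envelope and contact chromatin there. Most core histones are made in S phase from intronless genes whose messages end in a conserved stem-loop rather than in a poly(A) tail. Replacement histones are made throughout the cell cycle, mostly from polyadenylated messages, and are placed into nucleosomes without DNA replication. Linker histones bind DNA where it enters and leaves the nucleosome and favour compact chromatin.

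The deposited counts came from MARS-seq, which primes reverse transcription on poly(A) tails and reads the 3′ end of each message. UMIs were counted in the last 1000 bases of each gene and in the 100 bases downstream. The longest protein-coding GENCODE M21 transcript of each of the 10 members is longer than 1000 bases and would fill such a window. Shorter transcripts and the RefSeq annotation used for counting were not examined, so windows of the same length are an assumption. Some core histone transcripts are shorter than the window. RNA was isolated with oligo(dT) beads, and a message without a tail would be missed or counted low.

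The stem-loop is therefore shown first, because it marks a kind of histone message that can end without a tail. The letters searched on the sense strand of the GENCODE M21 transcripts were GGNNCTTNTNAGNGCC, in which N is any base. Among the members H2afx and Hist1h1c held it, and it was absent from every annotated transcript of the other 8. Hist1h2bc, an H2B gene of the cluster on chromosome 13, has only 1 annotated transcript, of 2 exons. Sequence outside that transcript was not searched, so a Hist1h2bc message with a stem-loop could have been missed. Another 41 Hist genes were counted, and 26 of them held it. Within the last 1000 bases it was present in 26 of all matched genes, or 0.248%, of which 5 were not histone genes. The 16 bases of the members are set beside those of Hist1h4h, a core histone gene with the same element, with the 4 bases of the loop in capitals.
H2afx: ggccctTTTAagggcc
Hist1h1c: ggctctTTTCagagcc
Hist1h4h: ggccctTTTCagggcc
In H2afx the element ended 822 bases before the annotated end of the message, and in Hist1h1c 840 bases before it. In Hist1h4h it ended 46 bases before the end. Of the 26 other Hist genes that held it, only 11 end within 100 bases after it. The rest run on further, among them Hist1h3d (752 bases) and Hist1h4d (770 bases), so a long run past the element is not particular to the members. The annotated H2afx and Hist1h1c transcripts thus run on well past the stem-loop, which both genes can also use as the end of a message without a tail. The poly(A) signal AATAAA lay in the last 50 bases of 5 members (H1f0, H2afv, H2afj, H3f3a and Hist1h1c), of 7 of the 41 other Hist genes and of 64.2% of all matched genes.

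Coordinates are those of GRCm38, the same assembly as mm10. H2afv is at chr11:6427229-6444443 on the reverse strand with 5 exons, and H2afz is at chr3:137864487-137866922 on the forward strand with 5 exons. H3f3a is at chr1:180800832-180813943 and H3f3b at chr11:116021912-116027962, both on the reverse strand, with 4 and 6 exons. H2afy is at chr13:56073619-56136361 on the reverse strand with 9 exons. H2afx (chr9:44334694-44336077), H2afj (chr6:136808244-136810074), H1f0 (chr15:79028450-79030504) and Hist1h1c (chr13:23738808-23740367) have 1 exon each, and Hist1h2bc (chr13:23684199-23692908) has 2, all on the forward strand. Some of these ends are not unique. Of the 40-base stretches at the end of the longest protein-coding H2afz transcript, 36.3% also occur in annotated transcripts of 4 processed pseudogenes, led by Gm8203. For Hist1h2bc 24.8% of such stretches occur in other annotated genes, led by Hist1h2br, with which it shares 18.7%. For H2afx the share was 0.624%, and for the other 7 members it was 0. How reads with more than 1 match were handled is not given in the sources used here, so the H2afz and Hist1h2bc counts are uncertain to that extent. H2afx overlaps Gm44335 and H2afy overlaps Gm47071 on the opposite strand, and whether the counting used strand is not given either.

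The libraries held between 1846208 and 3242051 UMIs, replicates of a group differed by more than sampling noise (chi-square per degree of freedom from 5.11 to 8.28), and the 10 members had between 11 and 978 UMIs per library. Counts below are normalized, that is, UMIs scaled by edgeR's TMM factors to the mean effective library size. The targeted gene Lmna had normalized counts of 2013, 2170 and 2325 in shControl replicates 1 to 3 and 964, 933 and 942 in the shLmna replicates, a log2 fold change of -1.20 (standard error 0.13, adjusted p = 3.5e-05). Here and below, adjusted p-values are those of edgeR's quasi-likelihood fit, corrected by Benjamini-Hochberg over the tested genes. On the plate, shControl occupied positions 13 to 15 and shLmna positions 16 to 18, and an effect of position cannot be told apart from one of group. Of 9 mammary carcinoma markers 6 were in the table, and Krt19, Cdh1 and Esr1 were not. Krt8 and Vim were abundant in every library, whereas Krt18 (6.52 to 22.4), Krt7 (3.11 to 13.2), Epcam (10.6 to 35.7) and Erbb2 (35.6 to 69.8) had low normalized counts, and Epcam was wholly lower in shLmna (adjusted p = 0.0909, edgeR). Of the haematopoietic, endothelial and fibroblast markers 2 of 7, 1 of 5 and 3 of 6 were in the table, and each list summed to a normalized count of at most 38.0 in any library.

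1 library of each group stood apart from its replicates. The melanocyte markers Mlana, Pmel, Tyrp1 and Dct summed to 1354 UMIs in shControl replicate 3 and to 1582 in shLmna replicate 2. They summed to 12 and 7 in shControl replicates 1 and 2 and to 1 and 3 in shLmna replicates 1 and 3. Sox10, a transcription factor of the melanocyte lineage, had 36 and 40 UMIs in the same 2 libraries and 0 in the other 4. Of the 7 melanocyte markers examined 6 were in the table, and their summed normalized count ranged from 5.44 to 1873 over the shControl libraries and from 1.86 to 1502 over the shLmna libraries. Melanocyte transcripts are not a feature of mammary cells. The study also used B16F10, a melanoma line. Over the 8969 tested genes the deviations of these 2 libraries from their group means correlated at 0.35. Those of shControl replicate 1 and shLmna replicate 1, which lack melanocyte transcripts, correlated at 0.352. Where the transcripts came from was not tested, and they are set beside the members' values below. Fold changes are therefore given also over the 4 libraries without them (2 against 2) and in a fit with a term for the 2 libraries, both chosen after these values were seen.

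The members of the set followed these 2 libraries in part. H1f0, H2afz, H2afy, H2afj and Hist1h2bc were highest in both of them, each within its own group, as were 19.1% of all tested genes. H2afv was lowest in both, 1 of the 10 members, against 18.3% of tested genes. H2afx, H3f3a, H3f3b and Hist1h1c did not hold the same place in both groups, and Hist1h1c was highest in shControl and lowest in shLmna. Of the members, H2afz stood highest above its replicates in these libraries in both groups, at 1.61 times the mean of the other 2 libraries in shControl and 1.72 times in shLmna. The plot of melanocyte markers beside the H2A.Z genes shows this by library.

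**Figure D1:**
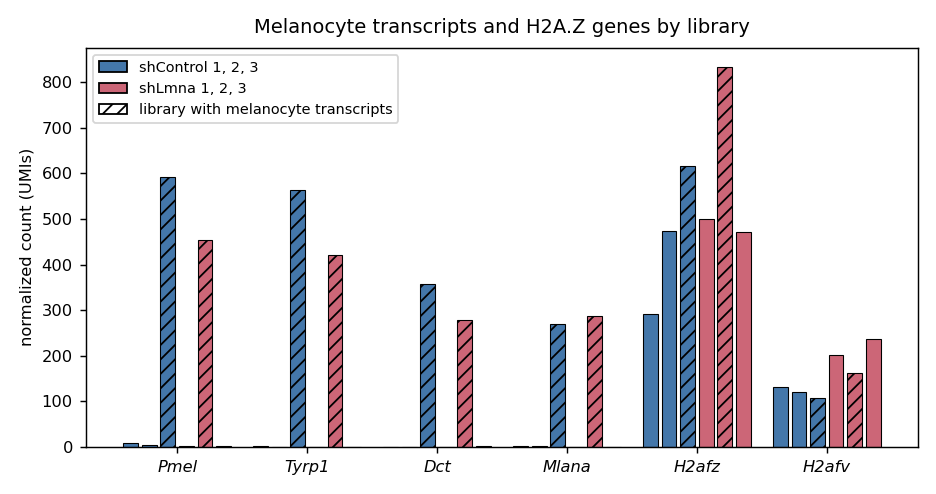
Normalized counts (UMIs) of 4 melanocyte markers and of H2afz and H2afv in each library, with shControl replicates 1 to 3 and then shLmna replicates 1 to 3 from left to right for each gene, and hatching on the 2 libraries with melanocyte transcripts. The markers are near 0 outside the hatched bars, H2afz is highest and H2afv lowest in the hatched library of each group.

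Of the 10 histone genes 1 differed between shLmna and shControl in the test over all genes. H2afv, which encodes a form of the H2A variant H2A.Z, was 1.65-fold higher in shLmna, and no member was lower. In bulk RNA of this kind, a change in message per cell and a change in the share of cells that make it cannot be told apart. Over all tested genes 714, or 7.96%, were higher and 518, or 5.78%, were lower at an adjusted p below 0.05, so that the members' share of 1 in 10 higher was near that of the background. The study called a gene differentially expressed at an adjusted p below 0.05 with a log2 fold change beyond 1 in either direction and a mean normalized count above 5. No member met these criteria, which 5.71% of tested genes met. At an unadjusted p below 0.05 there were 3 members (H2afv, H1f0 and H3f3a, all higher) and 2543 of all tested genes. The log2 fold change was above 0 in 8 of the 10 members, with a median of 0.23, against 50.4% of all tested genes and a median of 0.0033. The shLmna libraries lay wholly above the shControl libraries for 3 members (H2afv, H2afj and H3f3a), and wholly below for 0. Of all tested genes 16.8% lay wholly above and 15.7% wholly below.

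**Figure D2:**
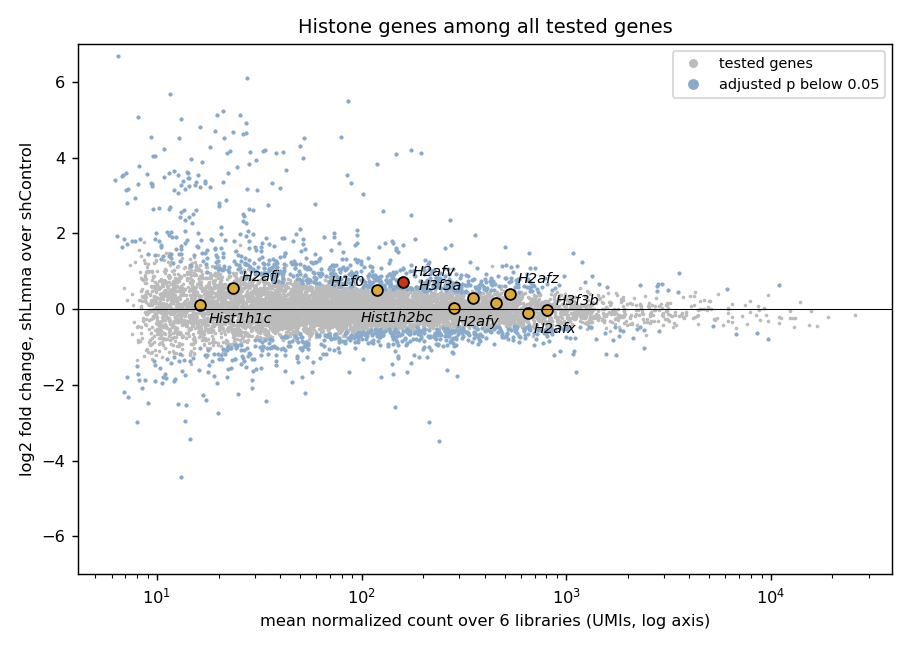
Log2 fold change of shLmna over shControl against the mean normalized count over the 6 libraries (log axis) for all 8969 tested genes, with those at an adjusted p below 0.05 in blue and the 10 histone genes as outlined circles. H2afv (red) is the only member past the threshold and sits at 0.72, and the other members (yellow) lie between -0.11 and 0.55.

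**Figure D3:**
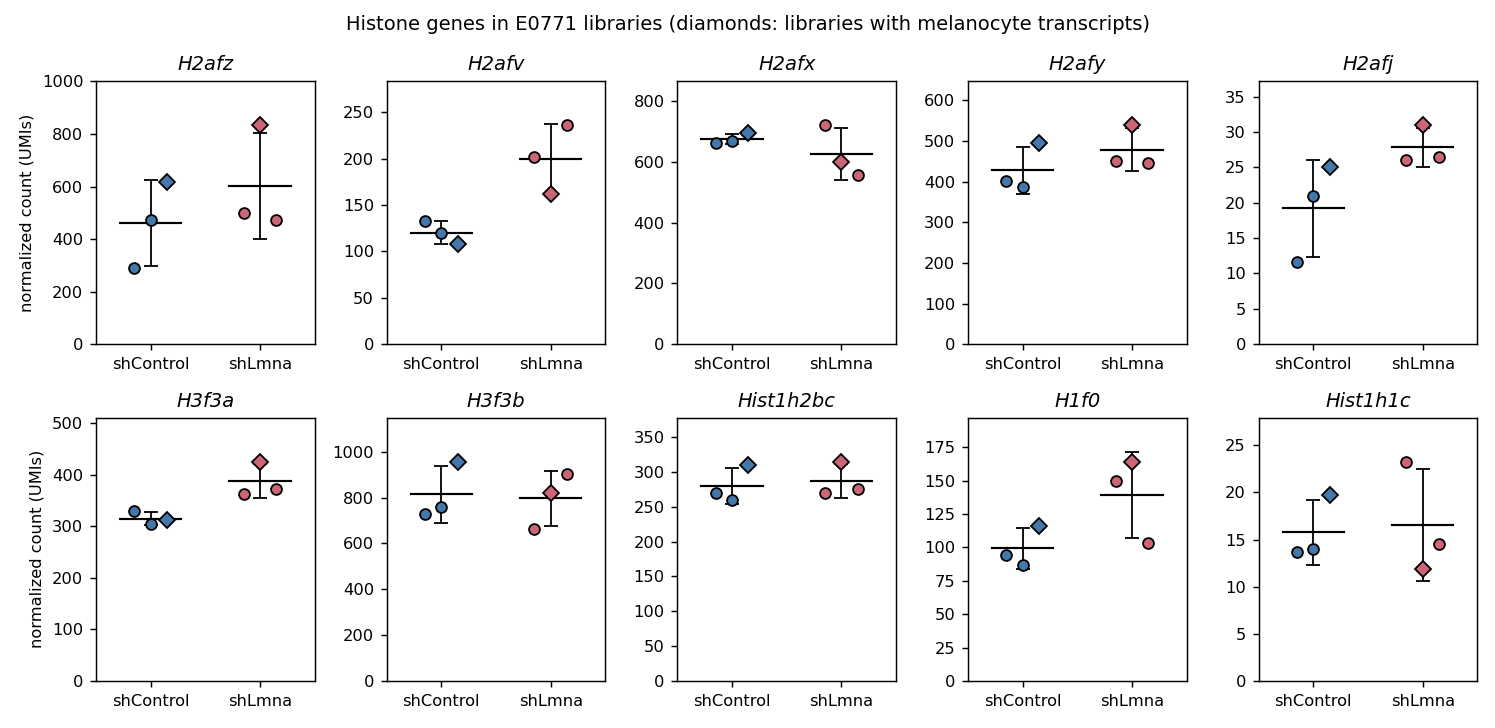
Normalized count (UMIs) of each histone gene in the 3 shControl (blue) and 3 shLmna (red) libraries, with a line at the mean and bars of 1 SD, and diamonds for the libraries with melanocyte transcripts. The groups are apart for H2afv, H2afj and H3f3a and overlap for the other 7.

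H2A.Z marks nucleosomes at promoters and regulatory elements, and it is encoded by H2afz and H2afv, whose coding regions are both 384 bases long. H2afv had normalized counts of 133, 120 and 108 in shControl replicates 1 to 3 and of 202, 161 and 236 in shLmna replicates 1 to 3. All 3 shLmna libraries were above all 3 shControl libraries, and the library with melanocyte transcripts was the lowest of its group on either side. The log2 fold change was 0.72 (standard error 0.18, 95% interval 0.34 to 1.10, adjusted p = 0.0142, edgeR), that is a fold of 1.65 with an interval from 1.27 to 2.14. H2afv ranked 647 by p among the tested genes. Without the 2 libraries with melanocyte transcripts it was 0.79 (adjusted p = 0.00834, edgeR), and with a term for them 0.73 (adjusted p = 0.00209, edgeR). The call did not hold when shControl replicate 2 was left out (0.72, adjusted p = 0.0836, edgeR), when shLmna replicate 1 was left out (0.70, adjusted p = 0.0581) or when shLmna replicate 3 was left out (0.59, adjusted p = 0.0899). The counted end of H2afv has 39.2% G and C, against a median of 47.0% over all matched genes, and with a correction for GC content the log2 fold change was 0.58 (adjusted p = 0.0498, edgeR).

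H2afz, the more abundant of the pair, had normalized counts of 291, 473 and 617 in shControl replicates 1 to 3 and of 500, 835 and 472 in the shLmna replicates. The groups overlapped, and replicates of 1 group differed by more than the groups did. Its log2 fold change was 0.40 (standard error 0.25, 95% interval -0.13 to 0.93, adjusted p = 0.322, edgeR). The pooled SD of H2afz between replicates was 0.50 on the log2 scale, above the 95th percentile of 0.42 among genes with a mean normalized count of at least 50. As single libraries were left out, the log2 fold change ran from 0.09 to 0.65, and over the 4 libraries without melanocyte transcripts it was 0.34 (adjusted p = 0.267, edgeR). With a term for the 2 libraries the standard error fell to 0.15, at a log2 fold change of 0.37 (adjusted p = 0.0855, edgeR).

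H2afv made up 31.3%, 20.3% and 14.9% of the UMIs of the pair in shControl replicates 1 to 3 and 28.8%, 16.2% and 33.4% in the shLmna replicates. The lowest share of either group was that of the library with melanocyte transcripts. The groups overlapped widely, with means of 22.2% ± 8.34 (SD, n = 3) and 26.1% ± 8.89 (SD, n = 3) and p = 0.7 in a two-sided exact permutation test, which for 3 against 3 cannot go below 0.1. Summed over the pair, shControl had a normalized count of 581 ± 151 (SD, n = 3) against 802 ± 168 (SD, n = 3) for shLmna (exact permutation p = 0.3). Neither the balance of the 2 genes nor their sum was thus shown to differ, although H2afv itself rose. Adjusted over the 7 shares and sums tested in this way, every p was 0.42 or more.

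Neither gene of the H3.3 pair passed the test. H3f3a and H3f3b encode the same replacement H3, which is deposited at active genes and at heterochromatin, and have coding regions of 408 bases each. H3f3a had normalized counts of 328, 304 and 311 in shControl replicates 1 to 3 and of 363, 425 and 373 in the shLmna replicates. Every shLmna library was above every shControl library. The log2 fold change was 0.30 (standard error 0.14, 95% interval 0.00 to 0.60, adjusted p = 0.173, edgeR), so it did not pass over all genes, and it stayed between 0.22 and 0.33 over every alternative run. H3f3b, the most abundant member, had normalized counts of 727, 760 and 957 in shControl and of 664, 821 and 904 in shLmna. The groups overlapped, with a log2 fold change of -0.03 (standard error 0.16, 95% interval -0.37 to 0.30, adjusted p = 0.923, edgeR).

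The value for H3f3b turned on the correction for GC content. The last 1000 bases of its longest protein-coding transcript, 1 of 4 annotated, have 35.4% G and C, the lowest of the members. With the correction, which rests on that transcript, the log2 fold change of H3f3b was -0.45 (adjusted p = 0.0246, edgeR), past the threshold and lower in shLmna. Over the 4 libraries without melanocyte transcripts it was 0.08 (adjusted p = 0.827, edgeR), on the other side of 0. The GC correction moved no other member by as much, as the plot of fold changes by setting shows.

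**Figure D4:**
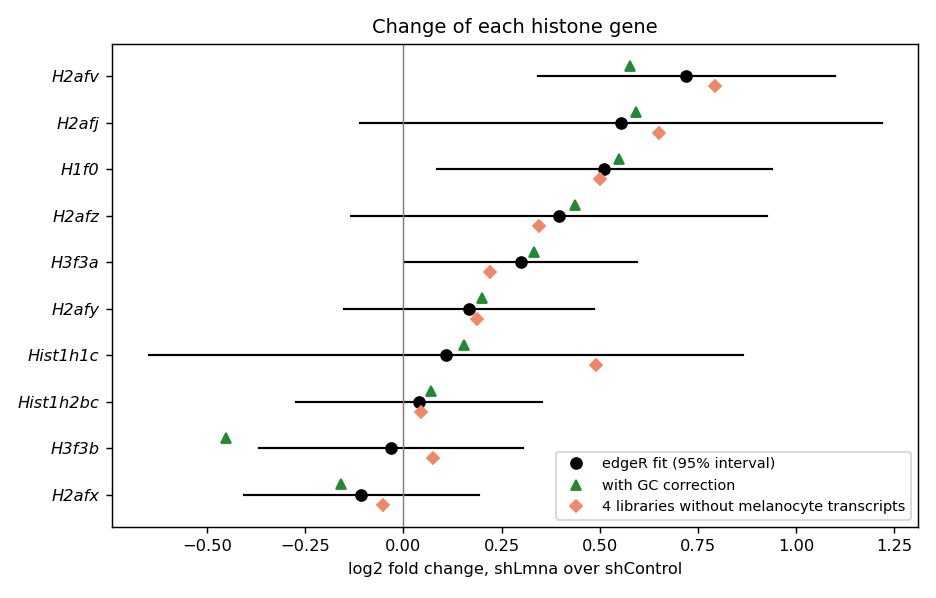
Log2 fold change of each histone gene, shLmna over shControl, from edgeR (black circles, bars are 95% intervals), with a GC correction (green triangles) and over the 4 libraries without melanocyte transcripts (orange diamonds). H2afv stays between 0.58 and 0.79 in these 3 fits, whereas H3f3b goes from -0.03 to -0.45 with the GC correction.

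H3f3a made up 31.1%, 28.6% and 24.5% of the UMIs of the H3.3 pair in shControl replicates 1 to 3 and 35.4%, 34.1% and 29.2% in the shLmna replicates. The lowest shLmna library lay inside the shControl range. The means were 28.1% ± 3.32 (SD, n = 3) and 32.9% ± 3.26 (SD, n = 3), with an exact permutation p = 0.2. Over the 4 libraries without melanocyte transcripts the difference was 2.41 percentage points in place of 4.80. The sum of the pair was a normalized count of 1129 ± 120 (SD, n = 3) for shControl against 1183 ± 136 (SD, n = 3) for shLmna (exact permutation p = 0.9).

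**Figure D5:**
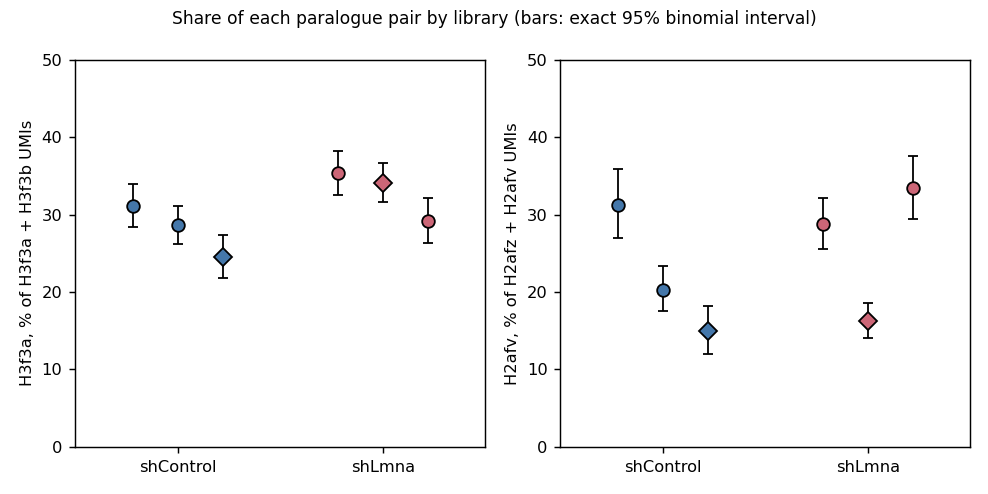
Share of H3f3a among H3f3a and H3f3b UMIs (left) and of H2afv among H2afz and H2afv UMIs (right), in percent, for each shControl (blue) and shLmna (red) library, replicates 1 to 3 from left to right, with exact 95% binomial intervals and diamonds for the libraries with melanocyte transcripts. The H3f3a shares run from 24.5% to 35.4% with overlapping groups, and the H2afv shares spread from 14.9% to 33.4% within and across groups.

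The other replacement H2A genes did not pass the test. H2afx encodes the H2A variant that is phosphorylated around DNA breaks, and had normalized counts of 662, 670 and 696 in shControl and of 722, 600 and 557 in shLmna. The shControl libraries were close to each other and lay within the range of the shLmna libraries. Its log2 fold change was -0.11 (standard error 0.14, 95% interval -0.41 to 0.19, adjusted p = 0.666, edgeR). H2afy encodes macroH2A1, a large H2A variant of repressed chromatin, and had normalized counts of 402, 388 and 494 in shControl and of 451, 540 and 447 in shLmna. In both groups the library with melanocyte transcripts was the highest, and the groups overlapped. Its log2 fold change was 0.17 (standard error 0.15, 95% interval -0.15 to 0.49, adjusted p = 0.504, edgeR). H2afj, which encodes the minor replacement form H2A.J, had 12, 27 and 19 UMIs in shControl replicates 1 to 3 and 28, 34 and 20 in the shLmna replicates. At normalized counts of 11.7, 21.0 and 25.0 against 26.1, 31.0 and 26.4 the groups did not overlap, though their nearest libraries were close. The log2 fold change was 0.55 (standard error 0.31, 95% interval -0.11 to 1.22, adjusted p = 0.266, edgeR).

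Hist1h2bc, an H2B gene of the cluster on chromosome 13, did not pass either. Its normalized counts were 269, 260 and 310 in shControl and 270, 315 and 275 in shLmna, and the ranges nearly coincided. The log2 fold change was 0.04 (standard error 0.15, 95% interval -0.27 to 0.35, adjusted p = 0.895, edgeR).

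The linker histones were H1f0 and Hist1h1c. H1f0 encodes H1.0, the replacement linker histone of slowly dividing and differentiated cells, and had normalized counts of 94.5, 87.0 and 116 in shControl and of 150, 164 and 103 in shLmna. shLmna replicate 3 lay inside the shControl range, and the other 2 shLmna libraries lay above it. The log2 fold change was 0.51 (standard error 0.20, 95% interval 0.08 to 0.94, unadjusted p = 0.022, adjusted p = 0.105, edgeR). It passed the threshold in 2 of the 17 alternatives, at 0.62 without shControl replicate 3 (adjusted p = 0.0456, edgeR) and at 0.50 with a term for the libraries with melanocyte transcripts (adjusted p = 0.0431, edgeR). Hist1h1c encodes the H1.2 form and had 14, 18 and 15 UMIs in shControl and 25, 13 and 11 in shLmna. Only shLmna replicate 1 stood above the rest, and without that library the log2 fold change turned from 0.11 (standard error 0.35, 95% interval -0.65 to 0.86, adjusted p = 0.882, edgeR) to -0.26.

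Over the 4 libraries without melanocyte transcripts no further member passed the test. H1f0 was then at 0.50 (adjusted p = 0.148), H3f3a at 0.22 (adjusted p = 0.435), H2afj at 0.65 (adjusted p = 0.278) and Hist1h1c at 0.49 (adjusted p = 0.476, all edgeR, log2 fold changes). H2afx was at -0.05, H2afy at 0.19 and Hist1h2bc at 0.04.

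The levels of the members can be set in order on the assumption that their windows had the same length, which was not checked for every transcript. Mean normalized counts in shControl fell from H3f3b (814) through H2afx (676), H2afz (460), H2afy (428), H3f3a (315), Hist1h2bc (280), H2afv (120), H1f0 (99.2) and H2afj (19.2) to Hist1h1c (15.8). Neighbours whose shControl libraries overlapped were H2afz and H2afy, H3f3a and Hist1h2bc, H2afv and H1f0, and H2afj and Hist1h1c. In shLmna the order of the means was the same, with 796 for H3f3b, 200.0 for H2afv and 139 for H1f0. The ends that are shared with other genes (H2afz, Hist1h2bc) and the messages that may lack a tail (H2afx, Hist1h1c) limit this order. Whether Hist1h2bc also has a message without a tail was not tested. The 10 genes together made up 0.113%, 0.123% and 0.146% of all UMIs in shControl replicates 1 to 3 and 0.134%, 0.164% and 0.140% in the shLmna replicates. The highest share of either group was in the library with melanocyte transcripts in shLmna and in shControl alike, and the groups overlapped (exact permutation p = 0.3).

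The replication-dependent histones outside the set were counted at low levels, with a median of 10 UMIs per gene and library over 38 core histone genes. This list leaves out the members of the same clusters, Hist1h2bc (208 to 345 UMIs per library) and Hist1h1c (11 to 25). Of the 25 listed core genes that could be tested 1 was higher and 0 were lower, with a median log2 fold change of 0.06. The one was Hist1h2bb, an H2B gene with 21, 27 and 19 UMIs in shControl and 46, 48 and 30 in shLmna, and a log2 fold change of 0.94 (standard error 0.24, adjusted p = 0.0194, edgeR). Its log2 fold change ranged from 0.88 to 1.01 as single libraries were left out, but the call was lost without shControl replicate 1 or 2 or shLmna replicate 1 or 2 (adjusted p from 0.0584 to 0.0964, edgeR) and with DESeq2 (adjusted p = 0.0847), and was kept in 11 of 16 alternatives. Of the 40-base stretches at the end of Hist1h2bc, 13.5% also occur in Hist1h2bb. Hist1h2bb counts are thus also uncertain through reads with more than 1 match, and other core genes were not searched against each other. Of the more abundant core genes, Hist1h2ae was at 0.55 (adjusted p = 0.0923), Hist1h4h at -0.16 (adjusted p = 0.671) and Hist1h3d at 0.09 (adjusted p = 0.84, all edgeR). Core histones together took 0.0226%, 0.0233% and 0.0219% of UMIs in shControl and 0.0276%, 0.0253% and 0.0275% in shLmna. These 3 libraries lay wholly above the other 3, the only one of the 7 shares and sums to do so, at the smallest p the exact permutation test can give (0.1, adjusted p = 0.42). Of the other variant and linker histones 4 of 16 were in the table and 2 were tested. Cenpa, the centromeric H3, was at 0.05 (adjusted p = 0.848) and Hist1h1a, an S-phase linker histone, at 0.66 (adjusted p = 0.226, both edgeR), and Hist1h1e was not tested. The part of messages without a tail in these counts was not tested.

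The genes that carry, exchange or read these histones were listed by role. Of 21 tested chaperones and depositors of H3 and H4, 2 were higher (median log2 fold change 0.08). Atrx, which with Daxx deposits H3.3 at heterochromatin and telomeres, had 2, 1 and 2 UMIs in shControl and 41, 70 and 43 in shLmna. Set against 3 UMIs in each shControl library, the shLmna mean of Atrx was 17.2-fold higher. The fitted fold had a 95% interval from 15.6 to 57.9 (adjusted p = 7.8e-06, edgeR), and the shControl libraries held next to none of the message. Rbbp7, a histone-binding subunit of several chromatin complexes, was at 0.89 (standard error 0.26, adjusted p = 0.0342, edgeR). The Rbbp7 call was lost with any library but shControl replicate 3 left out (adjusted p from 0.0732 to 0.178) and with a mean count of at least 50 (adjusted p = 0.0619, edgeR). Its log2 fold change ran from 0.58 to 1.30 over the 6 fits that leave out a library.

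Of 31 tested genes for exchange of H2A.Z and H2A, 0 were higher and 3 were lower, with a median log2 fold change of -0.21. These were Npm1, a nucleolar histone chaperone (-0.70, standard error 0.16, adjusted p = 0.00914), Ruvbl1, an ATPase of the SRCAP, TIP60 and INO80 remodellers (-0.52, standard error 0.14, adjusted p = 0.0204), and Ino80e, a subunit of INO80 (-0.47, standard error 0.13, adjusted p = 0.0298, all edgeR). Npm1 was called in all 17 alternatives. Ruvbl1 lost its call without shControl replicate 1 or 2 or shLmna replicate 2 or 3 (adjusted p from 0.0517 to 0.0997) and over the 4 libraries without melanocyte transcripts (0.0547, edgeR). Ino80e lost it without shControl replicate 2 or shLmna replicate 2 or 3 (adjusted p from 0.0880 to 0.112) and over the 4 libraries (0.0841, edgeR). In all, 9 genes of this list were above 0. H2afv, whose product these complexes exchange, was at 0.72. For processing of histone mRNA ends 1 of 16 was higher and 2 were lower (median 0.04). Cstf2, a cleavage stimulation factor, had 3, 4 and 1 UMIs in shControl and 16, 21 and 12 in shLmna (2.63, 95% interval 1.66 to 3.60, adjusted p = 0.00155, edgeR). Cstf2 reached the filter's minimum count of 10 only in shLmna, so the size of its fold rests on a shControl level near the floor. Lower were Cpsf4 (-0.60, adjusted p = 0.0247) and Cpsf2 (-0.94, adjusted p = 0.0445, both edgeR), subunits of the cleavage and polyadenylation specificity factor. The Cpsf4 call was lost with any library but shControl replicate 3 left out (adjusted p from 0.0538 to 0.167, edgeR). That of Cpsf2 was kept in only 5 of 16 alternatives, and was lost with each library left out (adjusted p from 0.0625 to 0.131, edgeR), with DESeq2 (0.145), limma-voom (0.0566), upper-quartile factors (0.0504) and the replicate block (0.056), and over the 4 libraries (0.164).

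Of 15 tested genes that phosphorylate, dephosphorylate or read H2AX 2 were higher and 0 were lower (median -0.04). The phosphatase Eya1 had 5, 3 and 4 UMIs in shControl and 21, 24 and 18 in shLmna (2.42, standard error 0.41, adjusted p = 0.00132), and the kinase Atr had 30, 20 and 19 against 36, 50 and 41 (0.94, standard error 0.29, adjusted p = 0.0448, both edgeR). Eya1 was called in all 16 alternatives and Atr in 9 of 16. Eya1 reached the filter's minimum count of 10 only in shLmna, so the size of its fold rests on a shControl level near the floor. The Atr call was lost without shControl replicate 2 or shLmna replicate 2 or 3 (adjusted p from 0.106 to 0.226), over the 4 libraries (0.0728), with the GC correction (0.073), also with the block (0.0969, all edgeR), and with DESeq2 (0.108). H2afx itself was at -0.11. Of 11 genes related to macroH2A 1 was lower and 0 were higher (median 0.04), Parp14, an ADP-ribosyltransferase (-1.32, standard error 0.34, adjusted p = 0.0191, edgeR), whose call was lost without shControl replicate 2 or shLmna replicate 1 or 3 (adjusted p from 0.0551 to 0.0908). Since replication-dependent histones follow the cell cycle, 2 lists of phase genes were read beside them. Of 17 S-phase genes only Tk1, thymidine kinase, passed (0.60, standard error 0.13, adjusted p = 0.00887), with a list median of -0.16, and of 14 G2 and M genes only Cdc20, an activator of mitotic exit, did (-0.50, standard error 0.15, adjusted p = 0.0376, both edgeR), with a median of 0.19. Tk1 was called in all 17 alternatives, and Cdc20 lost its call without shControl replicate 1 or 2 or shLmna replicate 2 or 3 (adjusted p from 0.104 to 0.154) and over the 4 libraries (0.0531, edgeR). Beside these counts stand the 7.96% higher and 5.78% lower over all tested genes, and nothing particular to a list is read from so few calls.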

How the data were processed

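Groups and replicate numbers of the 6 MARS-seq libraries were taken from the sample labels. The authors trimmed reads with Cutadapt, mapped them with STAR 2.4.2a to mm10, counted UMIs near the 3′ ends of RefSeq genes with a modified HTSeq-count and deposited whole-number counts without normalization. Every gene in the table reaches 6 UMIs in some library, through a step not given in the sources used here. Deposited ComBat values (log2) and the authors' DESeq2 comparison (mean normalized count, fold change, p-values, call and direction) were not used.

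Counts were filtered with filterByExpr (minimum count 10), scaled by TMM and tested with the quasi-likelihood fit of edgeR 4.0.16 in R 4.3.3, with Benjamini-Hochberg adjustment. Standard errors are the log2 fold change over the square root of F. Shares were compared by exact permutation (scipy 1.17.1), and binomial intervals cover counting error only. Alternatives were DESeq2 1.42.0, limma-voom (limma 3.58.1), RLE and upper-quartile scaling, other count filters, a replicate block, a GC correction (loess, span 0.3, on the last 1000 transcript bases) and each library left out. The scripts were tested on simulated data.

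The longest protein-coding GENCODE M21 transcript, or the longest of any kind where none was coding, was matched to 10469 genes, 324 by an older symbol. GC content and shared stretches are those of that transcript, whose end may differ from the RefSeq end that was counted. Shared stretches were searched among annotated transcripts only. Genes outside the set were named by rule: Lmna, histone genes that passed and the 3 most abundant others of each histone list, and up to 3 genes with the smallest adjusted p of each further list. Some results under this rule are not reported here. The members and lists were chosen with earlier results of these data known. The labels do not say whether replicates were separate cultures, so p-values measure only the spread between these samples.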

Additional observations from a re-analysis of the deposited data

How the results depend on the processing

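There were 17 alternative settings, 2 of them chosen after seeing the data (the 4 libraries without melanocyte transcripts, and a term for the other 2). The cause was not tested for any change below. H2afv stayed higher in all 17 and was called in 13. Its log2 fold change ran from 0.59 to 0.86 with each library left out, and with the GC correction and replicate block together it was 0.56 (adjusted p = 0.0622, edgeR). H1f0 ran from 0.38 to 0.67 with each library left out and was 0.50 and called with the melanocyte term. H3f3b was called lower with the GC correction (-0.45) and with GC correction and block (-0.45), reversed to 0.076 over the 4 libraries, and ran from -0.13 to 0.087 with each library left out, being above 0 without shControl replicate 3 (0.087) and without shLmna replicate 1 (0.069). Hist1h1c ran from -0.26 (without shLmna replicate 1) to 0.32, and Hist1h2bc from -0.032 (without shLmna replicate 2) to 0.11, with -0.014 without shControl replicate 2. Over the 4 libraries Cenpa was at -0.012 and Hist1h3d at -0.013. Members called higher numbered 1, but 0 with GC correction and block, 2 with the melanocyte term and 0 to 2 with each library left out, and 1 was called lower with the GC correction, with or without the block. Over all genes, 425 were higher with a mean count of at least 50 and 353 to 882 with each library left out, the fewest without shControl replicate 2. Lower genes numbered 838 with the melanocyte term and 187 to 698 with each library left out. By the study's criteria 112 were higher and 46 lower with a mean count of at least 50, and 92 to 192 were lower with each library left out. Deviations of same-numbered libraries correlated at 0.352, -0.115 and 0.00519 for replicates 1 to 3, and 2 of 6 libraries correlated best with their own number, so the numbers were not taken as pairs. The replicate number as a block gave 773 higher and 577 lower genes, against 714 and 518, and changed no call of a member (H2afv 0.71, adjusted p = 0.0156, edgeR). H2afj and Hist1h1c, with 11 to 34 UMIs per library, have the widest intervals of the set.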
